A study of Sus scrofa with 6 samples.

Results

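The HOXD cluster of the pig was examined in 2 skeletal muscles, longissimus thoracis (LT), a muscle of the back, and semitendinosus (ST), a muscle of the hind limb. Its members were the protein-coding genes with a symbol made of HOXD and a number in the Ensembl annotation of Sscrofa11.1, and 8 of the 25973 protein-coding gene IDs in the files met that rule. HOXD1, HOXD8 and HOXD9 were selected on their FPKM in LT and ST in these same libraries, so the HOXD levels below are a description and were not tested. RNA was taken from 3 Min pigs, a Chinese local breed, at 210 days of age, and the genotype of both groups is labelled WT. LT and ST samples with the same number came from the same pig, and the 3 LT and 3 ST libraries were made after removal of rRNA. Whole muscle holds fibres, vessels, fat, nerve and connective tissue, and in such bulk samples fewer cells of a type and less RNA per cell cannot be told apart. The authors deposited FPKM, the fragments of a transcript per kilobase of its length, scaled to all mapped fragments of the library. Values of all transcripts of a gene ID were summed, and differences are on the scale of log2(FPKM + 0.1), which understates the change of genes at low level.

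HOX genes encode homeodomain transcription factors that give cells their position along the body axis and the limbs. They stand in 4 clusters, and within a cluster the order of the genes matches the order in which they are used along the axis, with the low-numbered genes at the anterior end and the high-numbered genes at the posterior end. HOX proteins bind DNA together with TALE homeodomain partners (PBX, MEIS and PKNOX proteins), and Polycomb and Trithorax complexes keep each cluster silent or active in the cells of a region. HOXD genes with high numbers are best known for the patterning of the limbs, and adult muscle and connective tissue keep part of the HOX code of the site they came from.

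The libraries of a muscle were alike in the main but not in every respect. Over all genes, ST replicate 2 correlated with LT replicate 2, the same pig's LT library, at r = 0.960 on the log2 scale. With ST replicates 1 and 3 it correlated at 0.953 and 0.949, and with LT replicates 1 and 3, of other pigs, at 0.953 and 0.950. The log2 difference without ST replicate 2 is therefore also given for HOXD8, HOXD4, HOXD1 and the main lncRNAs. Beside it stands the difference without the ST library whose removal moved it most the other way. Mitochondrial transcripts took 5.36% to 8.16% of all FPKM in LT and 12.1% to 15.4% in ST. The median gene was higher in ST by 0.13 (log2) in the deposited values. The files give no number of fragments per transcript, so the depth behind single values is unknown and no counting interval was computed.

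The 8 genes lie on the plus strand of chromosome 15 in the order HOXD12, HOXD11, HOXD10, HOXD9, HOXD8, HOXD4, HOXD3 and HOXD1, from 81901032 to 81990807 (Sscrofa11.1). A gene without a symbol, ENSSSCG00000015979 at 81894121-81898944, shares 3845 bp with HOXD13 of RefSeq and is called the HOXD13 locus here. It is not counted among the 8. FPKM passed 0.1 in at least 1 library for 6 of the 8 genes, and 4 of them were above 0.1 in all 6 libraries. HOXD11 just passed this level, with a highest value of 0.134, and HOXD12 just missed it, with a highest value of 0.0843.

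**Figure D1:**
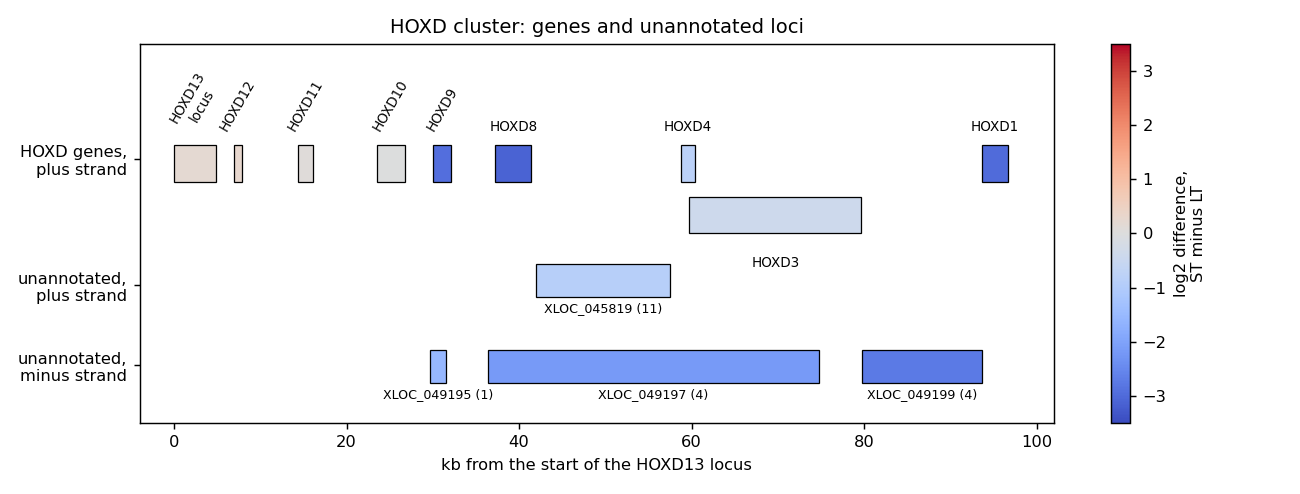
The HOXD genes and the unannotated loci between them are drawn to scale, in kb from the start of the HOXD13 locus, with colour for the log2 difference ST minus LT and the number of transcripts of each unannotated locus in parentheses. The darkest blue boxes are HOXD9, HOXD8 and HOXD1 (-2.94, -3.12 and -3.01), while HOXD4 and HOXD3 between them are paler (-0.80 and -0.41).

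The posterior genes of the cluster were close to 0 in both muscles. The HOXD13 locus, whose gene is known for the digits, had 0.0048, 0 and 0 FPKM in LT replicates 1 to 3 and 0.0065, 0 and 0.051 in ST replicates 1 to 3. HOXD12 (ENSSSCG00000015980, 81901032-81901994) had 0.0843 FPKM in ST replicate 3 and was at 0 in the other 5 libraries. The values do not separate the muscles.

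HOXD11 (ENSSSCG00000034741, 81908460-81910281), which with its paralogues shapes the forearm and the kidney, had 0, 0.102 and 0 FPKM in LT and 0, 0 and 0.134 in ST. HOXD10 (ENSSSCG00000015981, 81917613-81920884), known for lumbar motor neurons and the hind limb, had 0, 0.0275 and 0.0546 FPKM in LT and 0.0368, 0.00997 and 0.0243 in ST. Each of these genes had a library at 0 and ranges that overlapped between the muscles. With the HOXD13 locus, the posterior stretch of the cluster therefore had no value above 0.134 FPKM in any of the 6 libraries, in the hind-limb muscle as in the back muscle.

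HOXD9 (ENSSSCG00000015982, 81924142-81926274, 3 exons) is the first gene from the posterior end with an appreciable level, and belongs to the group of HOX genes used from the lower trunk to the proximal limb. It had 2.79, 3.56 and 3.73 FPKM in LT and 0.299, 0.354 and 0.392 in ST. All LT libraries were several times higher than all ST libraries, and within each muscle the libraries were close together. The mean was 3.36 ± 0.502 in LT and 0.348 ± 0.0468 in ST (SD, n = 3 each), a ratio of 9.65. On the log2 scale HOXD9 was lower in ST by 2.94, with differences of -2.86, -3.01 and -2.96 in pigs 1, 2 and 3.

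HOXD8 (ENSSSCG00000040349, 81931383-81935529), a gene of the central group expressed along much of the trunk, was the gene with the highest level in the cluster in every library. It had 31.3, 34.1 and 45.9 FPKM in LT and 4.04, 5.71 and 2.99 in ST. The lowest LT library was above the highest ST library, and the pig with the highest LT value had the lowest ST value. The mean was 37.1 ± 7.73 in LT and 4.25 ± 1.37 in ST (SD, n = 3 each), a ratio of 8.73. The log2 difference was -3.12 over all libraries, and -2.92, -2.56 and -3.89 in the 3 pigs. It was -3.36 without ST replicate 2 and -2.90 without ST replicate 3.

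Of the 3 transcripts listed for HOXD8, ENSSSCT00000060973, with 2 exons and 3522 bp, carried 97.3% to 99.0% of the gene's FPKM in each library. It had 30.7, 33.3 and 45.0 FPKM in LT and 3.94, 5.65 and 2.91 in ST. ENSSSCT00000090436, with 3 exons and 1803 bp, starts upstream of it and had 0.576, 0.816 and 0.871 FPKM in LT and 0.102, 0.0578 and 0.0803 in ST. Both transcripts thus lay higher in every LT library, and ENSSSCT00000076749 was listed at 0 in all 6 libraries. The isoform that dominates was the same in LT and ST.

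HOXD4 (ENSSSCG00000015984, 81952859-81954459), a gene of the anterior part of the cluster known for the hindbrain and the vertebrae of the neck, was less unequal between the muscles. It had 3.42, 3.03 and 3.19 FPKM in LT and 2.54, 1.22 and 1.87 in ST. The LT libraries were nearly equal and above all ST libraries, while the ST libraries were spread out. The mean was 3.22 ± 0.192 in LT and 1.88 ± 0.660 in ST (SD, n = 3 each), a ratio of 1.71. The log2 difference was -0.80, and it was -0.41, -1.25 and -0.74 in the 3 pigs. Without ST replicate 2 it was -0.54, and without ST replicate 1 it was -1.04.

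HOXD3 (ENSSSCG00000015985, 81953834-81973816, 4 exons), which with its paralogue on HOXA patterns the uppermost vertebrae, had 0.219, 0.260 and 0.625 FPKM in LT and 0.188, 0.237 and 0.269 in ST. The muscles overlapped, and only LT replicate 3 stood above the ST range. The log2 difference was -0.41 with all libraries and -0.04 without LT replicate 3. HOXD3 and HOXD4 share 626 bp on the same strand, and a fragment from there can be assigned to either, so the levels of both are uncertain to that extent.

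HOXD1 (ENSSSCG00000015986, 81987752-81990807, 2 exons), the most anterior gene of the cluster and known from pain-sensing neurons of the mouse, had 0.725, 1.38 and 1.77 FPKM in LT and 0.0285, 0.242 and 0 in ST. Every LT library was higher than every ST library. The log2 difference was -3.01 with all libraries, and -2.68, -2.12 and -4.22 in the 3 pigs. It was -3.54 without ST replicate 2 and -2.65 without ST replicate 3. This gene varied most within muscles among the 4 that did not overlap, and 1 of its ST values is 0, so its difference depends on the pseudocount. It was -4.73 with 0.01 and -1.05 with 1 added to FPKM.

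**Figure D2:**
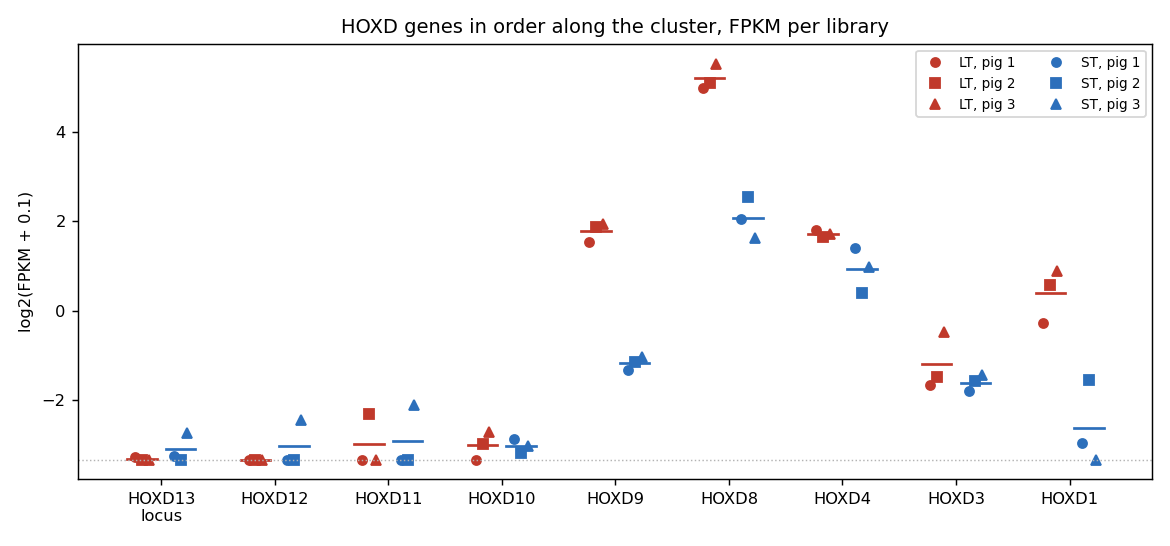
FPKM of each HOXD gene and the HOXD13 locus in order along the cluster, as log2(FPKM + 0.1), with 1 point per library, a symbol per pig and a line at the mean of each muscle (n = 3), and with 0 FPKM at the dotted line. LT (red) lies above ST (blue) without overlap for HOXD9, HOXD8, HOXD4 and HOXD1, and HOXD8 reaches 45.9 FPKM in LT against at most 5.71 in ST.

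In all, 4 of the 8 genes (HOXD9, HOXD8, HOXD4 and HOXD1) had all LT values above all ST values, and none had the opposite. Of the 19679 genes tested, 8.16% had all LT values above all ST values and 16.7% the opposite. HOXD3 was also lower in ST in each of the 3 pigs, which brings that count to 5. Of all genes tested, 15.9% were lower in ST in each pig. A log2 difference under -2.5, as in HOXD9, HOXD8 and HOXD1, was found in 0.3% of all genes. Since these genes were singled out from this contrast, nothing is read from these counts. The genes with the large differences were not neighbours throughout, because HOXD4 and HOXD3 stand between HOXD8 and HOXD1.

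The order of the levels along the cluster differed between the muscles. In LT the order of the means, per length, was HOXD8, HOXD9, HOXD4, HOXD1 and HOXD3, followed by the posterior genes. HOXD8 was 11.0 times as high as HOXD9, while HOXD9 and HOXD4 overlapped and kept their order in 2 of 3 libraries. HOXD4 lay above HOXD1 by a ratio of 2.49 and HOXD1 above HOXD3 by a ratio of 3.51, both without overlap.

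In ST the order was HOXD8, HOXD4, HOXD9 and HOXD3, each above the next in all 3 libraries without overlap. HOXD8 was 2.26 times as high as HOXD4, and HOXD4 was 5.39 times as high as HOXD9. HOXD9 and HOXD3 differed by a ratio of 1.51 only, and HOXD3, HOXD1 and the posterior genes overlapped with their neighbours. HOXD9, close to HOXD4 in LT, was thus well under it in ST.

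Taken as a share of the summed FPKM of the 8 genes, HOXD8 made up 81.6% ± 1.38 in LT and 60.7% ± 11.3 in ST (SD, n = 3 each). HOXD4 made up 5.78% to 8.89% in the LT libraries and 35.6%, 15.7% and 32.4% in ST replicates 1, 2 and 3. The share of HOXD9 was 6.76% to 8.39% in LT and 4.19% to 6.80% in ST, with a narrow overlap. The share of HOXD4 was thus larger in ST, although its FPKM was lower there in each pig (mean 3.22 in LT and 1.88 in ST). Shares of the same sum are not independent, so a smaller share of HOXD8 must go with larger shares elsewhere.

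Beside the genes, 10 lncRNA transcripts lay in the interval from 10 kb before HOXD12 to 10 kb after HOXD1 (81891032-82000807). None is annotated in Ensembl, 8 are on the minus strand, opposite the HOXD genes, and they belong to 3 assembled loci. The files class 4 as antisense, 3 as intronic and 3 as lincRNAs. All 10 passed 0.1 FPKM in at least 1 library, so each was tested by limma among 52102 transcripts. None was called at a Benjamini-Hochberg adjusted p under 0.05 and an absolute log2 difference above 1, against 0.146% of all transcripts (0.0825% higher and 0.0633% lower in ST). At an unadjusted p under 0.05, 5 of the 10 were lower in ST and 0 were higher, against 3.82% of all transcripts lower and 5.87% higher. The median log2 difference of the 10 was -1.18, with a range from -2.87 to 0.58, against a median of 0.09 over all transcripts. For 5 of the 10 all LT values were above all ST values and for 0 the reverse held, against 6.44% and 9.87% of all transcripts. LNC_004366, LNC_004371 and LNC_004372 passed 0.1 FPKM in LT libraries only, so the filter set their direction, and they are included in the median and, for LNC_004366, in both counts of 5. Transcripts of the same locus share exons and are not independent of each other.

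The first minus-strand locus, XLOC_049197, runs for 38.391 kb from 81930495 to 81968885 opposite HOXD8, HOXD4 and part of HOXD3. Its longest transcript, LNC_004368, with 9 exons, had 2.71, 2.32 and 2.59 FPKM in LT and 0.362, 0.955 and 0.387 in ST. All LT libraries were higher than all ST libraries, and ST replicate 2 was the highest of ST. The log2 difference was -2.09 ± 0.39 (SE), which did not pass the test (limma, Benjamini-Hochberg adjusted p = 0.202). This was the lowest adjusted p of the 10 transcripts. Without ST replicate 2 the log2 difference was -2.47, and without ST replicate 1 it was -1.88.

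LNC_004367 of the same locus, opposite HOXD8 and the bases before it, had 1.12, 0.608 and 0.914 FPKM in LT and 0.143, 0.186 and 0 in ST, without overlap (log2 -2.33 ± 0.51 (SE), limma adjusted p = 0.261). LNC_004366, opposite the start of HOXD8, had 0.1, 0.234 and 0.0809 FPKM in LT and 0, 0.0315 and 0 in ST, also without overlap (limma adjusted p = 0.483). LNC_004369, opposite HOXD4, overlapped between the muscles, with 0.118, 0.0972 and 0.454 FPKM in LT and 0.153, 0.194 and 0.0867 in ST. Summed over its 4 transcripts, the locus had 4.05, 3.26 and 4.04 FPKM in LT and 0.658, 1.37 and 0.473 in ST.

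The second minus-strand locus, XLOC_049199, spans 81973838-81987782 between HOXD3 and HOXD1 and shares 31 bp with the start of HOXD1. Its transcript LNC_004373, of 3517 bp, had 0.677, 0.880 and 1.12 FPKM in LT and 0, 0.299 and 0.0519 in ST. The groups did not overlap, and the log2 difference was -2.42 ± 0.57 (SE), short of the threshold (limma adjusted p = 0.285). Without ST replicate 2 it was -2.99, and without ST replicate 1 it was -1.99. LNC_004370 had 0.715, 0.0306 and 0.324 FPKM in LT and 0.115, 0.0496 and 0.0281 in ST, with overlap (limma adjusted p = 0.661). LNC_004371 was listed at 0.0855 and 0.572 in LT replicates 1 and 2 and at 0 elsewhere. LNC_004372 was above 0 in LT replicate 2 alone, at 0.578.

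Summed over its 4 transcripts, XLOC_049199 had 1.48, 2.06 and 1.44 FPKM in LT and 0.115, 0.349 and 0.0799 in ST. This is 204%, 149% and 81.8% of the level of HOXD1 in LT replicates 1, 2 and 3. The RNA opposite and upstream of HOXD1 was thus of the same order as that of HOXD1 itself in LT, and in both muscles pig 2 had the highest sum.

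The locus on the plus strand, XLOC_045819, lies between HOXD8 and HOXD4 at 81936120-81951623 and ends 20 bp before MIR10B of RefSeq (81951644-81951723), the gene of a microRNA known to repress HOXD10. It has 11 transcripts, of which 2 are classed as lncRNA and the other 9 as unannotated mRNA. LNC_004116 had 3.08, 1.34 and 3.03 FPKM in LT and 0.183, 1.20 and 0 in ST, without overlap although pig 2 had nearly equal values (log2 -2.87 ± 0.93 (SE), limma adjusted p = 0.427). Without ST replicate 2 its log2 difference was -3.85, and without ST replicate 3 it was -2.00. LNC_004117 went the other way in pigs 1 and 3, with 0.278, 0.0592 and 0.638 FPKM in LT and 0.929, 0 and 1.33 in ST (log2 0.58 ± 1.11 (SE), limma adjusted p = 0.863). Its direction turned without ST replicate 3 (-0.14).

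LNC_004116 and LNC_004117 share their end and most of their span, so the split of fragments between them is uncertain, and the sum of the locus is less exposed to it. That sum was 5.20, 4.55 and 6.73 FPKM in LT and 2.94, 2.17 and 3.81 in ST. All LT libraries were above all ST libraries, with a log2 difference of -0.88 ± 0.25 (SE) that was not called (limma over genes, adjusted p = 0.125). The difference was close in size to that of HOXD4, the next gene downstream, at -0.80. The sum equalled 16.6%, 13.3% and 14.7% of HOXD8 in LT and 72.7%, 38.1% and 127% in ST replicates 1, 2 and 3.

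Opposite HOXD9, the unannotated minus-strand locus XLOC_049195 (81923742-81925660, 1 transcript classed as mRNA) shares 1519 bp with the gene. It had 0.300, 0.413 and 0.497 FPKM in LT and 0.0662, 0.0252 and 0.120 in ST. The groups did not overlap, and the log2 difference of -1.58 ± 0.32 (SE) missed the threshold (limma over genes, adjusted p = 0.0690). The library kit marks strand, but whether strand was used in counting is not given in the sources used here. Reads of HOXD9, HOXD8, HOXD4 and HOXD3 and of the loci opposite them may therefore not be fully separated. With introns included, XLOC_049197 shares 4147 bp with HOXD8, 1601 bp with HOXD4 and 15052 bp with HOXD3. HOXD1 is exposed over the 31 bp shared with XLOC_049199. In LT XLOC_049195 stood at 10.7% to 13.3% of HOXD9 and XLOC_049197 at 8.80% to 12.9% of HOXD8.

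**Figure D3:**
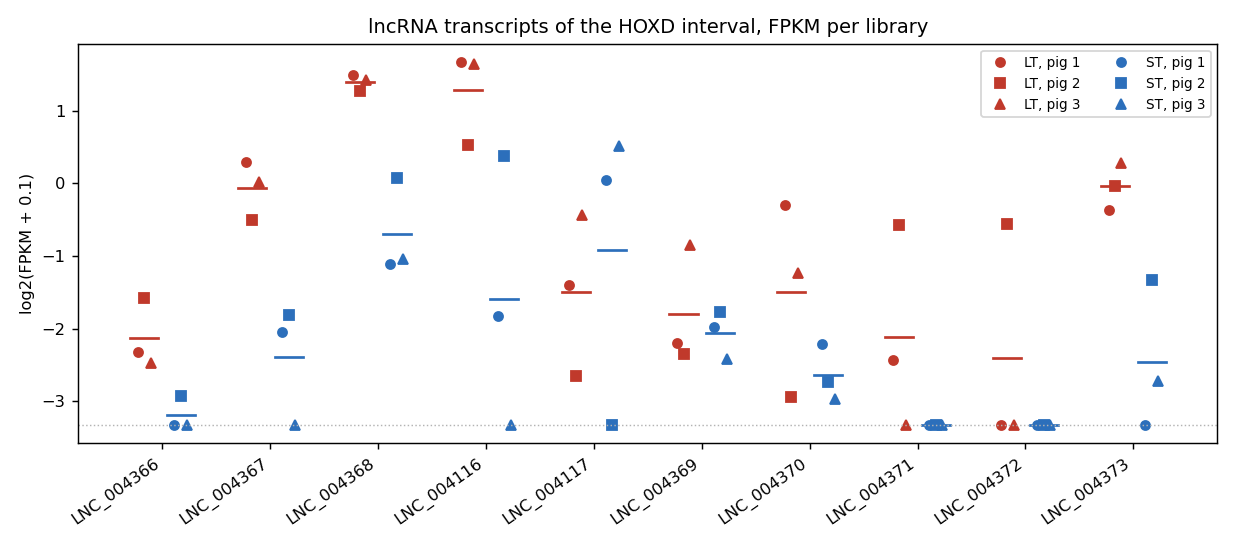
FPKM of the 10 lncRNA transcripts of the HOXD interval, ordered by start, as log2(FPKM + 0.1), with 1 point per library, a symbol per pig and a line at the mean of each muscle (n = 3), and with 0 FPKM at the dotted line. LT lies above ST without overlap for LNC_004366, LNC_004367, LNC_004368, LNC_004116 and LNC_004373, and LNC_004117 has its highest value, 1.33, in ST replicate 3.

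The neighbours of the cluster were compared in the same way. Within 1 Mb of the interval the files list 13 protein-coding genes, 12 passed the filter, and none was called by limma (adjusted p from 0.148), against 0.579% of all genes (0.412% higher and 0.168% lower in ST). With the p left unadjusted, 2 were under 0.05 with a higher level in ST and 0 with a lower one, against 13.1% and 5.88% of all genes, and the median log2 difference was 0.12, against 0.13 over all genes. Those 2 were ATP5MC3, for a subunit of ATP synthase, and ENSSSCG00000015988 at the position of HNRNPA3 in RefSeq. EVX2, a homeobox gene next to the HOXD13 locus, was listed at 0 in 5 libraries and at 0.016 in ST replicate 3.

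LNPK, which encodes a protein of the endoplasmic reticulum and lies 95.341 kb away on the posterior side, had 50.2, 42.3 and 50.8 FPKM in LT and 43.7, 32 and 38.3 in ST. It was lower in ST in each pig with overlapping ranges, and the log2 difference of -0.34 ± 0.19 (SE) did not pass (limma adjusted p = 0.372). MTX2, for a protein of mitochondrial import, is the nearest gene on the anterior side at 70.599 kb and had 19.2, 17.4 and 18.7 FPKM in LT and 20.7, 17.2 and 20.2 in ST (log2 0.07 ± 0.16 (SE), limma adjusted p = 0.856). Its levels in the muscles were nearly equal. Farther on that side NFE2L2, the regulator of the antioxidant response, had means of 18.9 ± 5.70 in LT and 27.8 ± 8.49 in ST (SD, n = 3 each) (limma adjusted p = 0.382).

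**Figure D4:**
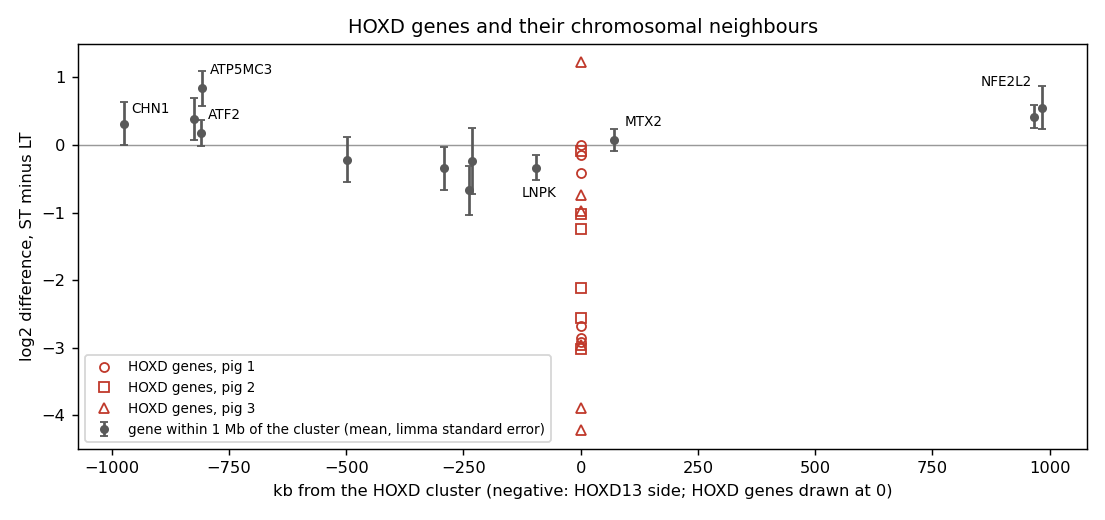
Log2 difference ST minus LT of the genes within 1 Mb of the HOXD cluster (grey, mean with the standard error of limma) by distance in kb, and of the HOXD genes that passed the filter in each pig (red, 3 pigs), all drawn at 0 kb. The means of the neighbours lie between -0.67 and 0.84, and the largest mean difference of a HOXD gene is -3.12 (HOXD8). The lowest single point, -4.22, is HOXD1 in pig 3, where ST is at 0 FPKM.

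The other HOX clusters place these levels. The 8 named HOXD genes summed to 38.4, 42.5 and 55.2 FPKM in LT and 7.13, 7.77 and 5.77 in ST, which is 60.6% ± 1.0 (SD, n = 3) of the FPKM of all 34 named HOX genes in LT and 13.7% ± 1.68 (SD, n = 3) in ST. HOXD was thus the largest cluster in each LT library, while HOXA was the largest in each ST library, with 60.9% to 69.2% there and 5.11% to 16.2% in LT. The place of HOXD in LT rests on HOXD8, which was selected on these values and made up 81.6% of the HOXD sum there. HOXD9 and HOXD4, the next in level, had means of 3.36 and 3.22 FPKM in LT, against 18.6 for the HOXC sum. Genes without a symbol, such as the HOXD13 locus, are missing from these sums. HOXB, with 2.83 to 3.69 FPKM in LT and 2.36 to 3.60 in ST, did not separate the muscles. HOXC, with 18.3 to 19.0 FPKM in LT and 6.88 to 7.76 in ST, had a higher sum in LT, as HOXD had. Of its 9 named genes 4 (HOXC5, HOXC6, HOXC8 and HOXC9) had all LT values above all ST values and 2 (HOXC10 and HOXC11) the opposite. Those 4 had log2 differences of -1.98, -3.14, -4.14 and -2.61, against -3.12 for HOXD8. HOXD had 4 and 0, but HOXD10, HOXD11 and HOXD12 were close to 0 in both muscles. Of all genes tested, 8.16% had all LT values above all ST values and 16.7% the opposite.

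Among the 34 genes HOXD8 ranked at 1 in each LT library and at 4 in each ST library. HOXD9 ranked between 4 and 6 in LT and between 13 and 17 in ST, and HOXD4 between 4 and 7 in LT and at 8 in each ST library. Of the paralogues of HOXD8, HOXC8 was also higher in every LT library. Its means were 6.68 ± 0.776 FPKM in LT and 0.285 ± 0.0575 in ST (SD, n = 3 each). The log2 difference of HOXC8 was -4.14. HOXB8 reached at most 0.0787 FPKM, in ST replicate 1, which is too low for a comparison. The paralogues of HOXD9 did not move alike. HOXC9 had 7.73, 8.20 and 8.31 FPKM in LT and 1.43, 1.01 and 1.3 in ST, as HOXD9 higher in LT, whereas HOXA9 had 0.373, 0.808 and 6.39 in LT and 10.5, 16.7 and 11.7 in ST. LT replicate 3, the highest LT library for HOXA9, was also the highest LT library for HOXD9, HOXD8, HOXD3 and HOXD1.

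**Figure D5:**
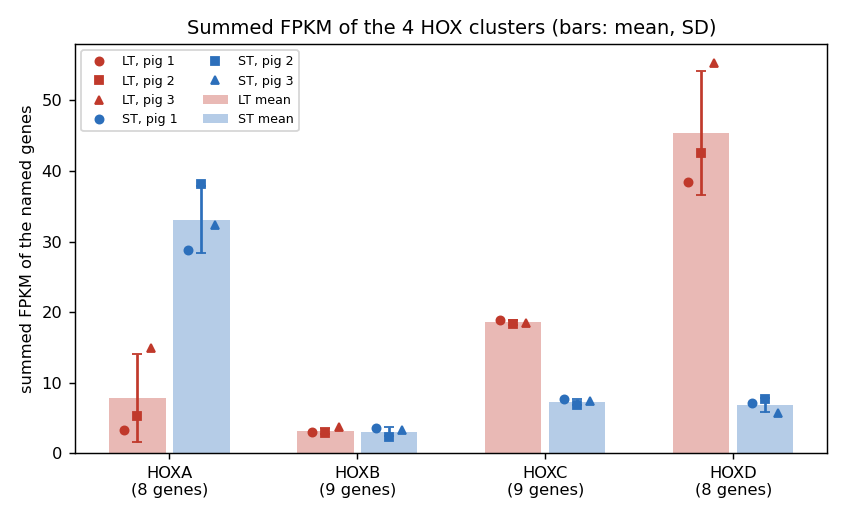
Summed FPKM of the named genes of each HOX cluster in LT and ST, with bars at the mean, error bars of 1 SD (n = 3) and a point per library. HOXD is the tallest in LT (38.4 to 55.2) and HOXA in ST (28.8 to 38.2).

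Of 9 TALE cofactor genes of HOX proteins 7 were matched by symbol, and none was called in either direction by limma, against 0.579% of all genes. At an unadjusted p under 0.05, 2 were lower (PBX3 and MEIS1) and 1 was higher (PKNOX2) in ST, against 5.88% and 13.1% of all genes. The median log2 difference of the 7 was -0.19, against 0.13 over all genes. PBX3, a DNA-binding partner of HOX proteins, had 5.46, 4.10 and 2.46 FPKM in LT and 1.26, 2.36 and 1.07 in ST. The groups came close but did not overlap, and the log2 difference was -1.31 ± 0.37 (SE, limma adjusted p = 0.119). It was called with the pig as a block, under which 838 genes (4.26%) were called.

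MEIS1, which joins PBX and HOX proteins on DNA, had means of 4.56 ± 0.935 in LT and 2.55 ± 0.390 in ST (SD, n = 3 each) (log2 -0.80 ± 0.22 (SE), limma adjusted p = 0.117). PBX2, the cofactor with the highest level, had 9.38 ± 1.47 in LT and 8.56 ± 1.79 in ST (SD, n = 3 each). PKNOX2 had 5.23 ± 0.214 in LT and 8.20 ± 2.45 in ST (SD, n = 3 each) (limma adjusted p = 0.238). All 7 remained short of a call.

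Of 36 chromatin regulators listed for HOX genes 33 were matched and none was called in either direction by limma, against 0.579% of all genes. Their median log2 difference was 0.15, against 0.13 over all genes. With the p left unadjusted, 4 were under 0.05 with a higher level in ST, among them RNF2, PHC2 and KDM6A, and 1 with a lower one (PCGF6), against 13.1% and 5.88% of all genes, so the share that was higher is near the background. RNF2, the ubiquitin ligase of Polycomb repressive complex 1, had means of 3.62 ± 1.12 in LT and 7.87 ± 1.0 in ST (SD, n = 3 each), a log2 difference of 1.14 ± 0.25 (SE, limma adjusted p = 0.0752). It was called with the pig as a block and after FPKM were rescaled to nuclear transcripts. PHC2, of the same complex, had 8.48 ± 1.44 in LT and 16.6 ± 2.59 in ST (SD, n = 3 each) (log2 0.96 ± 0.20 (SE), limma adjusted p = 0.0713).

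The regulators with the highest levels were also not called. BMI1, also of Polycomb repressive complex 1, had means of 22.0 ± 2.74 in LT and 22.6 ± 4.67 in ST (SD, n = 3 each). The cohesin subunits RAD21 and STAG2 and DPY30, a subunit of the Trithorax-type methyltransferases, each averaged between 18.3 and 24.1 FPKM in both muscles and had log2 differences between -0.32 and 0.25. DPY30 was lower in every ST library, and the ranges of BMI1, RAD21 and STAG2 overlapped.

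Of 10 markers of muscle fibres 4 were matched, all at high levels. ACTA1, the actin of skeletal muscle fibres, stood at 2429 ± 607 FPKM in LT and 2361 ± 568 in ST (SD, n = 3 each). TNNT3, the troponin T of fast fibres, had 8127, 7992 and 5185 FPKM in LT and 1046, 4518 and 161 in ST, with a log2 difference of -2.93 that was not called (limma adjusted p = 0.182). ST replicate 2 was by far the highest of ST and close to the lowest of LT. Of 4 endothelial markers matched, PECAM1 and CDH5 rose in ST, by log2 1.39 ± 0.22 (SE) and 1.22 ± 0.18 (SE) (limma adjusted p = 0.0424 and 0.0399), and the sum of the 4 was 47.1 to 71.0 FPKM in LT and 113 to 164 in ST. Over all genes 0.579% were called, 0.412% higher in ST. With the pig as a block KDR was called as well, which makes 3 of the 4, against 4.26% of all genes. None of the matched fibroblast (6), adipocyte (5), smooth muscle (4), Schwann cell (3), satellite cell (3) or immune (4) markers was called, against 0.579% of all genes. None of them was at 0 in every library.

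The 4 muscle fibre markers summed to 11658 to 14904 FPKM in LT and 9130 to 11099 in ST. Fibroblast markers summed to 632 to 1346 FPKM in LT and 665 to 1239 in ST, adipocyte markers to 65.2 to 180 and 47.3 to 148, and smooth muscle markers to 97.2 to 125 and 135 to 173. Satellite cell markers summed to 7.88 to 12.1 FPKM in LT and 6.32 to 8.81 in ST. The muscle fibre sums were higher in every LT library, but of the 4 markers only TNNT3 was clearly lower in ST. ACTA1, CKM and DES had log2 differences of -0.04, 0.32 and 0.70. The endothelial and smooth muscle sums were higher in every ST library, and the fibroblast, adipocyte and satellite cell sums overlapped. Their part in the HOXD levels was not tested, nor was that of fibre type or of the mitochondrial share.

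The genes whose profile over the 6 libraries was most like that of a HOXD gene were ranked by the root mean square difference of log2(FPKM + 0.1) after centring, among 12139 genes with a symbol. For HOXD9 these were ZIC4 (0.185), HOXC9 (0.270) and KCNH2 (0.328). HOXD8 was followed by HOXD9 (0.334), SLC7A5 (0.335) and HOXD1 (0.379). HOXD1 was followed by PRKAG3 (0.233), HOXD8 (0.379) and KCTD4 (0.388). These profiles share the step between LT and ST, which any gene with the same difference would share.

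ZIC4, a zinc finger transcription factor of development, had 0.826, 0.840 and 0.958 FPKM in LT and 0.0269, 0 and 0.0327 in ST. PRKAG3, the muscle subunit of AMP-activated protein kinase that lies on the same chromosome as HOXD1, had 18.3, 29.0 and 33.3 FPKM in LT and 2.74, 9.52 and 1.64 in ST. As in HOXD1, ST replicate 2 was the highest of ST and LT replicate 1 the lowest of LT. For HOXD4 the nearest were RTN4RL1 (0.110), HOXB6 (0.135) and ESCO1 (0.145), and for HOXD3 RAB12 (0.0889), PSMD12 (0.0898) and CMPK1 (0.104). For HOXD11 they were TM9SF3 (0.0904), RASSF7 (0.126) and GPR34 (0.165). HOXD11 reached only 0.134 FPKM, so its ranking rests on values near 0 and little can be read from it.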

How the data were processed

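Total RNA of LT and ST was depleted of rRNA and made into directional libraries. The authors cleaned the reads (SOAPnuke), aligned these to Sus scrofa 11.1 (HISAT2 2.1.0), assembled transcripts (StringTie) and deposited a table of FPKM for each library, with no counts. The 72511 transcripts were taken as deposited, and FPKM was summed per gene ID.

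Genes or transcripts that exceeded 0.1 FPKM in any library entered a limma fit (3.58.1, R 4.3.3) with a variance trend on log2(FPKM + 0.1), over 19679 genes or 52102 transcripts, 3 LT against 3 ST libraries. A call needed a Benjamini-Hochberg adjusted p under 0.05 and an absolute log2 difference above 1. On simulated data with 200 genes changed by log2 4, 190 were recovered with 11 other calls. That change is larger than any mean difference given here for a HOXD gene or lncRNA. The simulation therefore gives no recovery rate for smaller differences or for the fit over transcripts. The study took both muscles from the same pigs, and same-numbered libraries were taken as 1 pig from their titles. Their residuals correlated at 0.276 to 0.303, against -0.199 to -0.116 for different pigs. Residuals are centred on the muscle mean, so the values for different pigs must be negative on average where those for the same pig are positive. The main fit did not use the pig.

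HOXD genes were described without a test. The members and lists were chosen with earlier results of these data known. Named were all HOXD genes, the lncRNAs of the interval, the nearest flanking genes, called genes and up to 4 with the highest mean of each list, and the 3 genes nearest in profile. List and flanking genes named for an unadjusted p under 0.05, TNNT3 and the paralogues of HOXD9 were chosen after their values were seen. So were HOXC5, HOXC6, HOXC10, HOXC11 and the paralogues of HOXD8. Some items of the lists are not reported here. Genes were matched by symbol, and the gene lists held HOX cofactors, chromatin regulators and cell type markers. Alternatives were other pseudocounts and filters, the pig as a block, rescaling, quantile normalization, no variance trend, mRNA transcripts only and leaving out each library. Tables were handled in Python 3.11.15 with numpy 2.4.6 and pandas 2.3.3, and plots drawn with matplotlib 3.10.9.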

Additional observations from a re-analysis of the deposited data

How the results depend on the processing

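HOXD9, HOXD8, HOXD4 and HOXD1 did not overlap between LT and ST after rescaling to nuclear transcripts, after quantile normalization and with mRNA transcripts only. Another pseudocount, the block or a library left out cannot make them overlap, and the filters and the variance trend do not bear on these values. Over these settings the log2 difference ranged from -3.36 to -2.87 for HOXD8, from -3.23 to -1.69 for HOXD9, from -4.73 to -1.05 for HOXD1 and from -1.04 to -0.54 for HOXD4. The extremes of HOXD9 and HOXD1 came from the pseudocounts of 0.01 and 1. No lncRNA of the interval and no flanking gene was called under any alternative. The pig as a block leaves each mean difference as it is. LNC_004117 turned to -0.0124 with a pseudocount of 0.01 and ranged from -0.142 to 1.78 over the libraries left out, turning without ST replicate 3 and, at -0.000837, without LT replicate 2. LNC_004369 ranged from -0.53 to 0.213, turning without LT replicate 3. The cause was not tested.

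The background moved much more. The number of genes called, 114 (81 higher in ST), was 6 without a filter on FPKM (1 higher and 5 lower), 62 with quantile normalization (33 higher), 31 without the variance trend (17 higher) and 343 after rescaling to nuclear transcripts (287 higher). With the pig as a block 838 genes were called, among them 1 HOX cofactor and 1 chromatin regulator, and the latter list also had 1 call after rescaling. Leaving out a library gave 1 to 842 calls, the lowest without LT replicate 1 and the highest without ST replicate 2, which leaves 2 libraries in 1 arm. Rescaling moved the median of all genes from 0.13 to 0.22 and quantile normalization to -0.01, shifts smaller than the differences of HOXD8, HOXD9 and HOXD1. FPKM without fragment numbers limit what can be said of HOXD10, HOXD11, HOXD12 and the HOXD13 locus.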
